A study of Homo sapiens with 6 samples.

Results

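The EGR, NAB and NR4A genes were examined in L428 cells, a human Hodgkin lymphoma line, after an siRNA against the transcription factor BATF3 and after a negative control siRNA. They are EGR1, EGR2, EGR3 and EGR4, the corepressor genes NAB1 and NAB2, and NR4A1, NR4A2 and NR4A3. A probe set is the group of short probes that reads a transcript on the array, and every probe set that the platform annotation assigned to one of these 9 symbols alone was taken. This gave 33 of the 49393 non-control probe sets, for 8 of the 9 genes. EGR2 had none, so its mRNA level was not analysed here.

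The cells had been nucleofected, a form of electroporation, with 3 µg of either siRNA and cultured for 48 hours. There were 3 arrays of BATF3 siRNA and 3 arrays of control siRNA, all from total RNA of L428 cells grown in the same medium. A single BATF3 siRNA was used. The labels do not say that replicates were separate cultures, so errors and p-values rest on the spread between these arrays, which may be technical. They are those of limma, which draws the spread of each probe set toward that of the whole table. The errors are therefore smaller than a probe set of wide spread would give alone, and larger where the spread is narrow. All values are the deposited log2 values, and a difference is always BATF3 siRNA minus control siRNA on that scale.

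EGR proteins are zinc finger transcription factors that bind GC-rich DNA. Many cells, B cells included, switch EGR1 on within minutes of a receptor or growth factor signal, usually for a short time. NAB1 and NAB2 bind EGR proteins and mostly repress their activity, and NAB2 is itself an EGR target in a negative feedback loop. The NR4A genes encode orphan nuclear receptors that are also switched on early by such signals, in lymphocytes through the antigen receptor.

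The genes were chosen with the EGR1 difference in these arrays already known. Their differences between the siRNAs are therefore given as a description, with standard errors and 95% intervals from the limma fit over all probe sets and with no test of their own. EGR1 stood higher on all 6 of its probe sets after BATF3 siRNA, by 1.21 to 2.05. No such difference was seen for the other 7 measured genes, whose 27 probe sets differed by −0.41 to 0.24. Of these 7, NAB1 alone had probe sets above the highest background probe set of every array. In the others a change hidden by background cannot be told apart from no change.

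The windows before the gene starts of EGR1, EGR4 and NR4A3 are shown for the response elements through which early signals are known to reach genes of this kind. They were picked with the values known, and no difference between the siRNAs is read from them. Each window holds the 250 bases before the gene start in RefSeq GRCh38.p14, written 5′ to 3′ on the gene's strand. Capitals mark CArG boxes, CRE cores and EGR sites. The CArG box binds SRF, the CRE binds CREB and ATF proteins, and the EGR site is the binding sequence of EGR proteins themselves. The EGR1 window is chr5:138465229-138465478 on the plus strand, the EGR4 window is chr2:73293549-73293798 on the minus strand, and the NR4A3 window is chr9:99821635-99821884 on the plus strand.
EGR1: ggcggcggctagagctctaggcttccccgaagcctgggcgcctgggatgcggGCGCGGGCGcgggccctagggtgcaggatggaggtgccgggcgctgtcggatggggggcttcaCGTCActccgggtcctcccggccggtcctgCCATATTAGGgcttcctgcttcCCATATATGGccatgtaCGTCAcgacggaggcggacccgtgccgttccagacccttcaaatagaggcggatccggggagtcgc
EGR4: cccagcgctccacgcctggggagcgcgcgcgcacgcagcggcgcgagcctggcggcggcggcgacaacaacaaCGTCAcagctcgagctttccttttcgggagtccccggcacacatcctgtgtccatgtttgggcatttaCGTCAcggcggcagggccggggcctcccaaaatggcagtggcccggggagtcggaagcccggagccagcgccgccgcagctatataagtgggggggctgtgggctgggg
NR4A3: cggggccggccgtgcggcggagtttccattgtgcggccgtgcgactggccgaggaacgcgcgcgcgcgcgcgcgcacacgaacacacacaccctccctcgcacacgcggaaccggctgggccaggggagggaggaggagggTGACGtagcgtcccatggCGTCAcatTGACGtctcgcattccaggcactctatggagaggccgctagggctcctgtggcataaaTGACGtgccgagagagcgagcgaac

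The EGR1 window held 2 CArG boxes, which began 105 and 83 bases before the gene start. A CArG box was present in 1.16% of the 35114 windows of this length in the RefSeq table, where a gene with several starts has several windows. Of the other member windows, 1 of the 3 EGR2 windows held 1 CArG box, 71 bases before the gene start, and those of EGR4, NR4A3, NAB1, NAB2 and NR4A1 held 0. The CRE core (TGACG on either strand) occurred 2 times in the EGR1 window, 2 times in that of EGR4 and 4 times in that of NR4A3. The 3 NAB1 windows held 0, 1 and 1, the 3 EGR2 windows 0, 0 and 2, and those of NAB2 and NR4A1 held 0. The core was present in 21.2% of all windows. The full CRE (TGACGTCA), which contains the core, occurred in 0 of the 12 windows of the 7 member genes that had one, against 1.65% of all windows. Windows of EGR3 and NR4A2 were not used here.

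The EGR site was searched as GCGNGGGCG on both strands. It occurred 1 time in the EGR1 window and 1 time in that of NAB2. The 3 NAB1 windows, of which 2 overlap, held 2, 3 and 0. It was present in 8.41% of all windows. The AP-1 site (TGANTCA, either strand), the sequence that BATF and JUN proteins bind, occurred in 0 of the 12 windows, against 6.57% of all windows. The NBRE (AAAGGTCA, either strand), which NR4A receptors bind as monomers, also occurred in 0 of the 12 windows, against 1.05%. These are matches of letters in a short window, and binding was not measured.

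The siRNA reduced its target. BATF3 mRNA read 10.87, 10.76 and 10.69 in the BATF3 siRNA arrays, against 11.89, 12.08 and 11.94 in the control siRNA arrays, a difference of −1.20 (SE 0.095; limma adjusted p = 0.00673 over 18244 genes). All 7 genes fixed as markers of Hodgkin cells, among them TNFRSF8 (CD30), CCL17 and IRF4, lay above the highest background probe set of every array. Of the 8 T and NK cell markers and the 6 fibroblast and epithelial markers, 0 did so on any array. Among the 7 myeloid markers CD68 alone did. Of 4 measured B cell genes that Hodgkin cells often lack, CD79B did so on every array, and the mean level of the 4 was 5.94 to 5.99 after BATF3 siRNA, against 5.47 to 5.82 after control siRNA; 0 of them passed the limma test, and their part in the results was not tested. The array background, taken over the GC-rich background probe sets (20 to 25 G or C bases in a probe), averaged 5.92 and 5.98 in BATF3 siRNA replicates 2 and 3, 6.49 in BATF3 siRNA replicate 1 and 6.46 to 6.49 in the control siRNA arrays.

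EGR1 was read most brightly by probe set 11754334_s_at. Its values were 10.41, 9.34 and 10.42 in the BATF3 siRNA arrays, against 8.48, 7.38 and 8.17 in the control siRNA arrays. All 3 BATF3 siRNA arrays were above all 3 control siRNA arrays, and the lowest BATF3 siRNA array lay 0.85 above the highest control siRNA array. The group means were 10.06 ± 0.62 and 8.01 ± 0.57 (SD, n = 3 each), a difference of 2.05 (SE 0.33). This is a ratio of 4.13 (95% interval 2.47 to 6.89). Replicate 2 had the lowest value in both groups. Of the EGR1 probe sets, 11754334_s_at alone lay above the highest background probe set on all 6 arrays, where control siRNA replicate 2 came closest with 7.38 against a background of 7.11. The arrays read RNA of whole cultures, so more EGR1 mRNA in each cell and more cells with EGR1 mRNA cannot be told apart.

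In Affymetrix naming the suffixes s_at and x_at mark probe sets with probes that may also match other transcripts, and a_at marks one whose probes match transcripts of a single gene. The 3 EGR1 probe sets of the a_at kind are therefore given in full. On the control siRNA arrays none of the 3 reached the highest background probe set (7.11 to 7.32), so the sizes of their differences are uncertain. Of all 6 arrays, 11717860_a_at lay above that limit on 2, and 11717861_a_at and 11752940_a_at on 1 each. In BATF3 siRNA replicate 2 all 3 sets lay under it (6.68). Probe set 11717860_a_at read 7.60, 5.93 and 7.64 after BATF3 siRNA, against 5.18, 5.12 and 4.89 after control siRNA, a difference of 1.99 (SE 0.38). Probe set 11717861_a_at read 6.82, 5.86 and 6.86 after BATF3 siRNA, against 5.51, 4.48 and 4.76 after control siRNA, a difference of 1.60 (SE 0.31).

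Probe set 11752940_a_at read 6.80, 5.67 and 7.28 after BATF3 siRNA, against 5.38, 4.75 and 5.04 after control siRNA, a difference of 1.53 (SE 0.34). In all 3 a_at sets the groups did not overlap, and BATF3 siRNA replicate 2 was the lowest BATF3 siRNA array. The 2 x_at sets differed by 1.30 (SE 0.22, 11751643_x_at) and 1.21 (SE 0.27, 11717862_x_at), again without overlap. They lay above the highest background probe set on 3 and 0 arrays, in that order. The 6 probe sets read the same gene in the same RNA, so they are not 6 independent results.

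**Figure D1:**
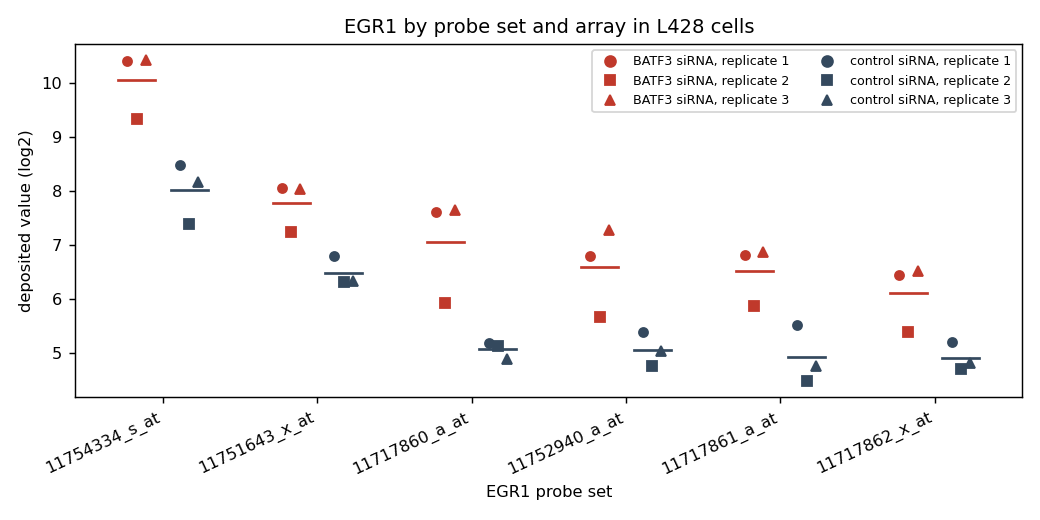
Deposited log2 value (y axis) of each EGR1 probe set (x axis) on each array. Points are arrays, symbols the replicate numbers, and short lines the group means over 3 arrays; in every probe set the 3 BATF3 siRNA arrays lie above the 3 control siRNA arrays, and replicate 2 is the lowest BATF3 siRNA array.

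By size, the EGR1 probe sets ranked 1, 2, 4, 6, 8 and 9 among the differences of all 49393 probe sets, and EGR1 ranked 1 among 18244 genes. The spread within the groups was also wide. It was 0.60 for 11754334_s_at (SD over both groups), against a median of 0.14 over all probe sets, and 99.1% or more of all probe sets had a smaller spread than each EGR1 probe set. The SE and interval of 11754334_s_at are therefore narrower than its own arrays alone would give. In the limma test over all probe sets 0 of the 33 member probe sets passed an adjusted p of 0.05, against 0.0101% of all probe sets, and by gene 0 of the 8 members passed, against 0.0164% of all genes. At an unadjusted p under 0.05 there were 3538 probe sets in the whole table. Since the genes were chosen on this contrast, nothing is read from the members' ranks or from their own count.

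BATF3 siRNA replicate 1, whose array background matched that of the controls, had an EGR1 level (11754334_s_at) 2.40 above the control siRNA mean. BATF3 siRNA replicates 2 and 3, with the lower background, lay 1.33 and 2.41 above it, with an average of 1.87. Over the mean of the 6 probe sets, the BATF3 siRNA arrays lay 1.95, 0.84 and 2.06 above the control siRNA mean, and the control siRNA arrays lay at 0.36, −0.28 and −0.07 around it. With the array background as a block the EGR1 difference on 11754334_s_at was 2.40. No control siRNA array had the lower background, so this is the replicate 1 value again and not a further result. BATF3 itself ran from 10.69 to 10.87 among the BATF3 siRNA arrays, and EGR1 from 9.34 to 10.42 on 11754334_s_at in the same arrays. Whether these levels are related was not tested.

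The other 2 measured EGR genes read low. EGR3, a relative of EGR1 known from lymphocyte activation and tolerance, read 5.0, 4.82 and 4.84 in the BATF3 siRNA arrays on its brightest probe set, against 4.76, 4.99 and 4.58 in the control siRNA arrays. The groups overlapped, with a difference of 0.11 (95% interval −0.16 to 0.38). Over its 4 probe sets the difference ran from −0.21 to 0.13, with 2 positive and 2 negative.

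EGR4, best known from nerve cells and germ cells, read 4.71, 4.26 and 4.40 after BATF3 siRNA, against 4.48, 4.57 and 4.48 after control siRNA. Its difference was −0.054 (95% interval −0.33 to 0.22), and that of its other probe set was 0.0027. No probe set of EGR3 or EGR4 reached the highest background probe set on any array. The base content of their probes was not examined, so a change hidden by background cannot be told apart from no change.

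NAB1 was the one corepressor gene read well above background, on 5 of its 7 probe sets in every array. Its brightest probe set, 11764019_s_at, read 10.17, 10.12 and 10.05 in the BATF3 siRNA arrays, against 10.30, 10.33 and 10.26 in the control siRNA arrays. The 3 BATF3 siRNA arrays were below the 3 control siRNA arrays, with a difference of −0.18 (SE 0.087) or a ratio of 0.883 (95% interval 0.770 to 1.01). The second brightest, 11746201_a_at, read 9.09, 8.97 and 9.0 after BATF3 siRNA, against 9.22, 9.21 and 9.16 after control siRNA. It gave the same difference of −0.18 (SE 0.087), again without overlap.

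The other 3 NAB1 probe sets above background differed by −0.18, −0.11 and −0.074, with overlapping groups. The 2 remaining sets were of the x_at kind, and both were lowest in control siRNA replicate 2. Probe set 11746814_x_at read 6.08, 6.10 and 6.16 after BATF3 siRNA, against 6.40, 5.40 and 6.28 after control siRNA. Its difference was 0.088, and its spread within groups exceeded that of 99.2% of all probe sets, whereas the brightest NAB1 set had a smaller spread than most of the table.

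NAB2, the corepressor gene that EGR proteins induce, had 1 probe set. It read 4.97, 5.08 and 5.07 in the BATF3 siRNA arrays, against 5.17, 5.22 and 5.29 in the control siRNA arrays. The groups did not overlap, and the difference was −0.19 (SE 0.089; 95% interval −0.39 to 0.013). On no array did it reach the highest background probe set, so the size of this difference is uncertain.

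The NR4A genes showed no common direction. Their 13 probe sets read between 2.89 and 6.46, under the highest background probe set on all arrays, and differed by −0.41 to 0.24 with a median of −0.024, with 6 positive and 7 negative. NR4A1 (Nur77), the member most used as a reporter of antigen receptor signals, read 5.40, 5.43 and 5.44 in the BATF3 siRNA arrays on its brightest probe set, against 5.56, 5.56 and 5.57 in the control siRNA arrays. The difference was −0.14 (SE 0.084), small but without overlap, and the spread within groups was 0.015. Its other 6 probe sets overlapped between the groups and differed by −0.41 to 0.099. Of all 7 NR4A1 probe sets, 5 had a negative and 2 a positive difference. The largest was that of 11759135_x_at, −0.41 (95% interval −0.77 to −0.047). It read 3.91, 4.07 and 3.43 after BATF3 siRNA, against 4.28, 4.06 and 4.30 after control siRNA. Probe set 11754772_s_at differed by −0.27 (95% interval −0.53 to −0.011). The intervals of all other NR4A1 probe sets included 0.

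NR4A2 (Nurr1), known for its role in dopamine neurons, read 6.46, 5.86 and 6.01 after BATF3 siRNA, against 6.0, 6.21 and 6.05 after control siRNA. The groups overlapped, with a difference of 0.024 (95% interval −0.31 to 0.36). With the array background as a block it was 0.37, a value that sets BATF3 siRNA replicate 1 alone against the control siRNA arrays. NR4A3 (NOR1) read 4.60, 4.61 and 4.86 after BATF3 siRNA, against 4.33, 4.89 and 4.14 after control siRNA. Its difference of 0.24 (95% interval −0.16 to 0.64) lay within that overlap. It was 0.46 without control siRNA replicate 2, 0.082 without control siRNA replicate 3 and 0.49 with array weights. All 3 of its probe sets had a positive difference in the fit with all arrays (0.021 to 0.24).

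**Figure D2:**
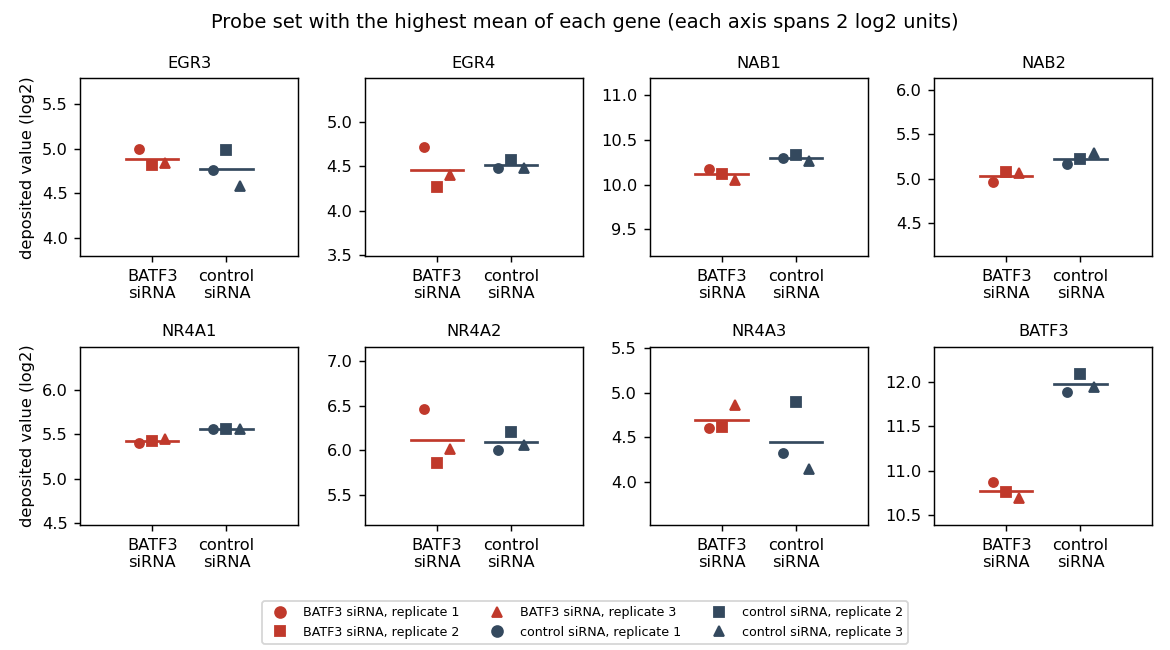
Deposited log2 value (y axis, spanning 2 log2 units in each panel) of the brightest probe set of the 7 other measured genes and of BATF3 on each array, with BATF3 siRNA on the left and control siRNA on the right. Lines are means of 3 arrays; NAB1, NAB2, NR4A1 and BATF3 do not overlap between the groups, and the first 3 of these differ by less than 0.2.

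Among all 33 probe sets, 6 were higher without overlap (18.2%), all of EGR1, and 4 were lower without overlap (12.1%), of NAB1, NAB2 and NR4A1. Of all probe sets, 6.38% were higher without overlap and 5.86% were lower. The choice of genes used this contrast, and probe sets of 1 gene are not independent, so nothing further is read from these shares. Leaving EGR1 out, the median difference of the 27 probe sets was −0.042, against −0.0036 over all probe sets.

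**Figure D3:**
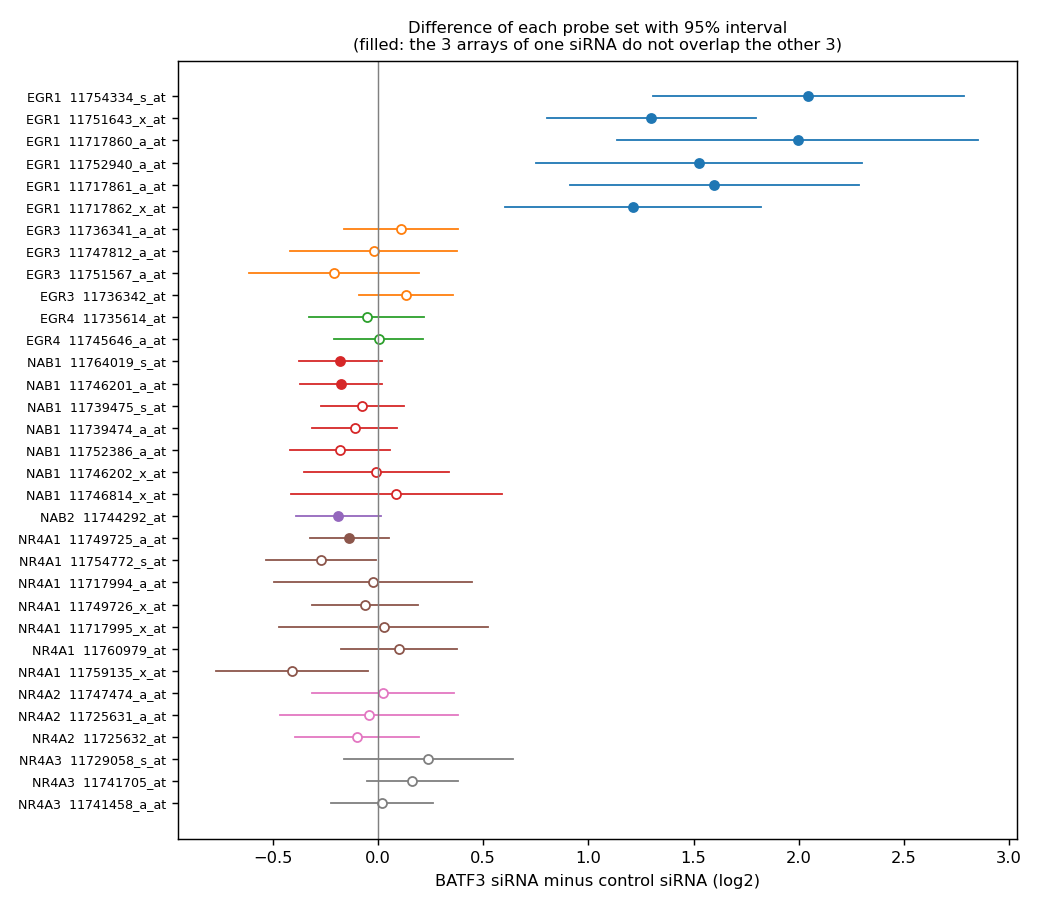
Difference of each of the 33 probe sets, BATF3 siRNA minus control siRNA (x axis, log2), with its 95% interval from the limma fit. Filled points mark probe sets whose groups of 3 arrays do not overlap; the 6 EGR1 sets lie between 1.21 and 2.05, and all others between −0.41 and 0.24.

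Agreement between probe sets of 1 gene was measured on deviations from the group means, which leave out the difference between the siRNAs. Over the 6 arrays, pairs of EGR1 probe sets correlated at 0.73 to 0.98 (median 0.91 of 15 pairs). For NAB1 the median of 21 pairs was 0.19 (−0.63 to 0.94) and for NR4A1 it was 0.071 (−0.89 to 0.73). These values share the arrays and the normalization and are a description over 6 arrays. The variation of EGR1 from array to array was therefore read alike by its probe sets, which was not so for NAB1 and NR4A1. The spread within groups of the EGR1 probe sets was 0.38 to 0.70, against 0.049 to 0.39 for NAB1 and 0.015 to 0.38 for NR4A1. How far a smaller spread lowers the agreement was not tested.

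The genes most like EGR1 were taken among 507 other genes with an SD of at least 0.3 over the 6 arrays. Pearson's r over the 6 levels was highest for CLEC2B (0.988), IL31 (0.985), CTH (0.977), BHLHE22 (0.976), PPARG (0.973) and JMY (0.960). Of these, IL31, BHLHE22 and PPARG did not reach the highest background probe set on any array, and JMY did on 4. This r holds the difference between the siRNAs as well as the variation within each group, and no p is given. CLEC2B, a lectin-like membrane protein gene, read 8.80, 8.64 and 8.85 after BATF3 siRNA, against 8.31, 8.08 and 8.19 after control siRNA. CTH, the enzyme gene that makes cysteine from cystathionine, read 8.96, 8.71 and 9.01 after BATF3 siRNA, against 8.21, 8.09 and 8.28 after control siRNA. In both genes replicate 2 was the lowest array of each group, as for EGR1. None of the 6 passed the limma test over all genes (adjusted p = 0.193 to 0.497).

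**Figure D4:**
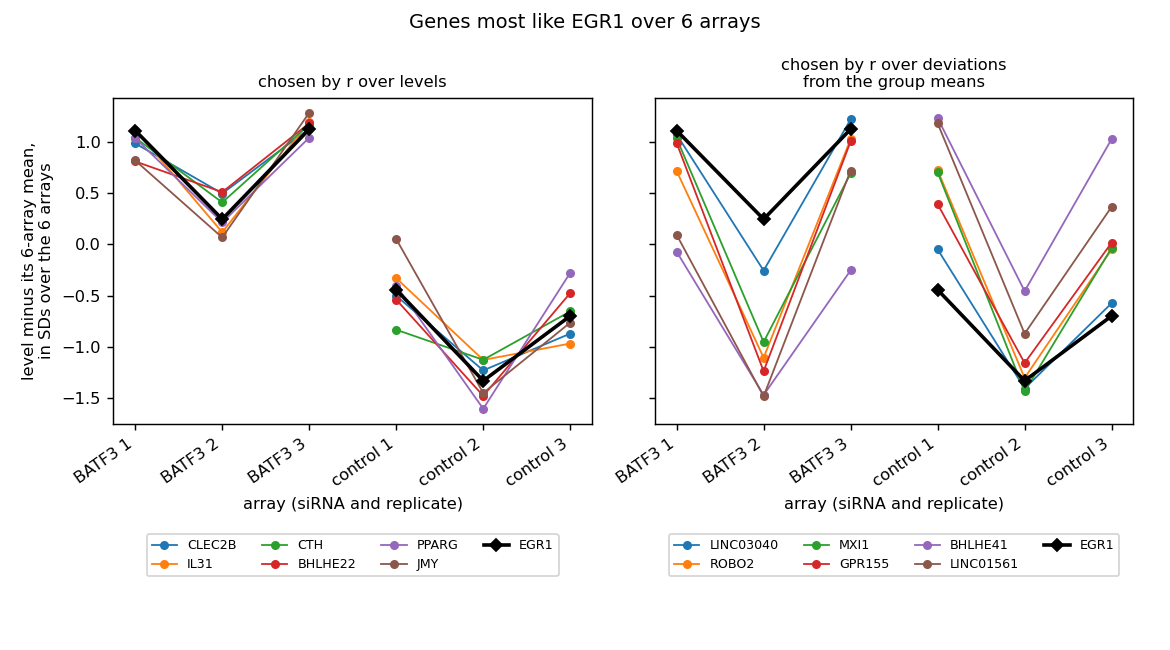
Level of EGR1 (black) and of the genes most like it on each array (x axis), as the level minus its mean over the 6 arrays, in SDs over the same arrays (y axis). The left panel holds the 6 genes with the highest r over levels (0.960 to 0.988) and the right panel the 6 with the highest r over deviations from the group means (0.977 to 0.995); EGR1 is lowest in replicate 2 of both groups.

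The 5 lists of genes around these factors were counted in the fit over all genes, where 3 of 18244 passed, 1 higher and 2 lower. The median of all genes was −0.0027. The lists were chosen with earlier results of these data known. Of 16 measured factors that act upstream of EGR and NR4A transcription, such as SRF, ELK, CREB and MEF2 proteins, 0 passed, and the median difference was 0.025 with 10 positive and 6 negative. Those with the smallest p were CRTC1, a CREB coactivator, at −0.25 (SE 0.11, limma adjusted p = 0.700) and MRTFA, an SRF coactivator, at −0.25 (SE 0.12, limma adjusted p = 0.730). Neither reached the highest background probe set on any array.

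Of 21 measured genes reported as EGR1 targets, 0 passed in either direction, with a median of 0.011, 12 positive and 9 negative. PLAU, which encodes the urokinase protease, read 8.19, 8.08 and 8.25 after BATF3 siRNA, against 7.78, 7.60 and 7.93 after control siRNA (difference 0.40, SE 0.11; limma adjusted p = 0.475). CD44, which encodes a hyaluronan receptor, read 10.48, 10.24 and 10.43 after BATF3 siRNA, against 10.71, 10.68 and 10.68 after control siRNA (difference −0.31, SE 0.093; limma adjusted p = 0.529). Neither pair of groups overlapped, and the directions were opposite.

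Of 13 measured partners of the NR4A receptors and of the NAB proteins, 0 passed, with a median of −0.073, 4 positive and 9 negative. RXRA, which encodes a retinoid receptor that pairs with NR4A1 and NR4A2, was at −0.29 (SE 0.14; limma adjusted p = 0.730), and the kinase gene STK11 was at −0.20 (SE 0.13; limma adjusted p = 0.822). Of 15 genes of a tolerance programme linked to EGR2 and EGR3, known mostly from mouse T cells, 0 passed, with a median of 0.034, 9 positive and 6 negative. CDKN1A, the gene of the cell cycle inhibitor p21, differed by 0.79 (SE 0.14, limma adjusted p = 0.226), and the receptor gene LAG3 by 0.25 (SE 0.093, limma adjusted p = 0.622). STK11 and LAG3 did not reach the highest background probe set on any array, and RXRA and CDKN1A did on 5 of the 6.

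Of 15 measured early genes of B cell receptor signalling, 0 passed. The median was 0.21 with 11 positive and 4 negative differences. RGS1, a regulator of G protein signals, read 10.50, 10.23 and 10.50 after BATF3 siRNA, against 9.99, 9.91 and 9.98 after control siRNA (difference 0.45, SE 0.10; limma adjusted p = 0.418). DUSP2, a phosphatase gene of MAP kinases, read 7.41, 7.20 and 7.26 after BATF3 siRNA, against 6.79, 7.0 and 6.95 after control siRNA (difference 0.37, SE 0.10; limma adjusted p = 0.475). DUSP2 lay above the highest background probe set on 3 of the 6 arrays, and RGS1 on all 6. In this list 7 of 15 genes were higher without overlap and 3 were lower. The counts higher and lower were 0 and 0 of 16 for the upstream factors, 1 and 3 of 21 for the reported EGR1 targets, 0 and 1 of 13 for the partners, and 3 and 0 of 15 for the tolerance programme. Among all genes 6.36% were higher without overlap and 5.78% were lower. The list of early genes holds genes whose values in these arrays were already known.

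**Figure D5:**
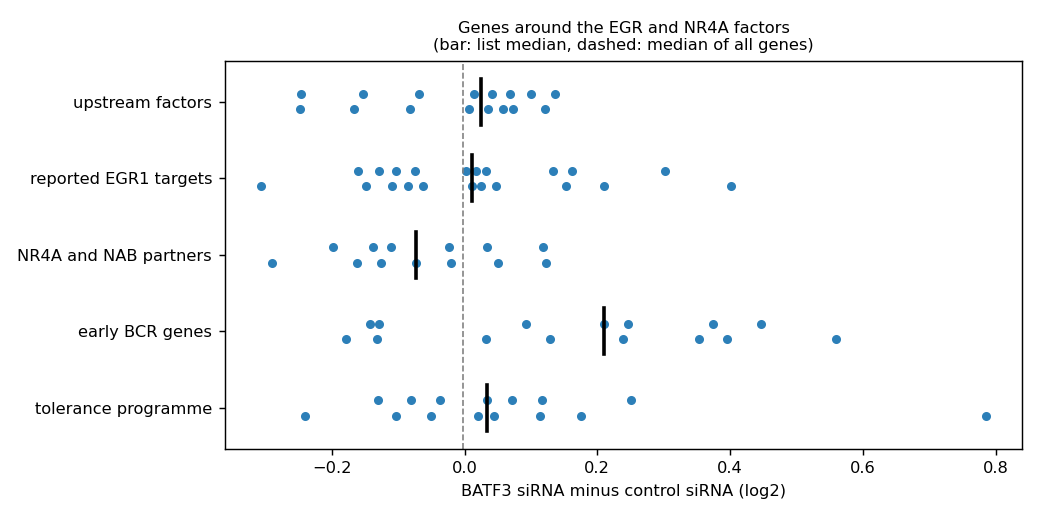
Difference of each measured gene of the 5 lists, BATF3 siRNA minus control siRNA (x axis, log2). Points are genes, bars the list medians and the dashed line the median of all genes (−0.0027); the early B cell receptor genes have a median of 0.21 and the other lists lie between −0.073 and 0.034.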

How the data were processed

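The labels give 3 arrays of BATF3 siRNA and 3 of control siRNA. Each probe set had 1 value per array in the deposited table, on a log2 scale whose base was inferred from its range. The affy package is named in the submitters' processing notes, and how the arrays were normalized is not stated there. Array medians were 6.24 to 6.33, and the authors' log2 values were taken unchanged. Their number, 6 arrays, limits the precision (median SE 0.107). Symbols came from the platform annotation, and 45208 of 45278 single-gene probe sets matched a GRCh38.p14 RefSeq gene table by Entrez identifier, with 0 symbols changed.

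Differences were fitted with limma 3.58.1 in R 4.3.3 (lmFit, eBayes, two-sided) over 49393 probe sets, and over 18244 genes with the probe set of highest mean standing for each. Benjamini-Hochberg adjustment ran over the whole table, and an adjusted p under 0.05 was a call. The fit was tested on simulated data. The members and lists were chosen with earlier results of these data known. Named genes were BATF3, all members, the 2 genes of smallest p per list where 0 was called, and the 6 most like EGR1 by each measure. Alternatives changed normalization, probe set choice, a filter on dim genes, variance model, blocks and arrays used.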

Additional observations from a re-analysis of the deposited data

How the results depend on the processing

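The EGR1 difference moved by less than 1 SD within groups (0.60) under all 13 alternatives run, from 1.61 with the mean of its 6 probe sets to 2.41 without BATF3 siRNA replicate 2, with 1.73 as the lowest when 1 array was left out. The replicate number as a block left it at 2.05 and brought its SE to 0.11. Same-numbered arrays correlated in their deviations at 0.029, 0.15 and −0.025, and differently numbered arrays at −0.10 to 0.097. The highest of these was that of the replicate 2 pair, and the numbers are not shown to pair the arrays. The array background as a block gave an EGR1 difference of 2.40. Only BATF3 siRNA replicates 2 and 3 had the low background. Each difference and call under that setting therefore rests on BATF3 siRNA replicate 1 against the control siRNA arrays. The member probe sets with a positive difference numbered 16, and 13 to 19 without 1 array. Sign changes of other members included NAB1 at 0.088 and NR4A1 at 0.028 on their most variable probe sets, EGR3 at −0.21 on its own, EGR4 at 0.20 with the background block (NR4A2 at 0.37 there), and NR4A2 at −0.15 to 0.15 when 1 array was left out. The genes called numbered 3. They were 5 with the most variable probe set, 9 with genes above the median mean, 12 with a trend and robust prior, 25 with array weights, 0 with the background block (1011 at an unadjusted p under 0.05 in limma), 5 when all probe sets were tested, and 0 to 2 without 1 array, with 1 without replicate 1 of BATF3 siRNA or replicate 3 of control siRNA; at 0, without replicate 3 of BATF3 siRNA or replicate 2 of control siRNA, 852 and 1446 genes had an unadjusted p under 0.05 in limma. In each of the 5 lists 0 genes were called under all 15 alternatives. Small list medians changed sign: without 1 array they ran from −0.038 to 0.036 for upstream factors, −0.018 to 0.0016 for EGR1 targets and −0.021 to 0.086 for the tolerance programme, while the median of the partners was 0.020 with the background block. Of the 6 genes most like EGR1, 3 were among the 6 for the mean of the EGR1 probe sets, 3 among the 4 tied at the highest Spearman's rho, and 0 among the 6 by deviations. Only 1 probe set of EGR1 and 5 of NAB1 lay above the highest background probe set on every array. Background probe sets with 3 to 15 G or C bases averaged 2.06 to 2.20. How far background limits the other member probe sets is uncertain, since the base content of their probes was not examined.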

Other observations

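The genes that vary most like EGR1 within the groups were listed as a description, since they were picked for this likeness among 507 genes. By r over deviations from the group means, which leave out that difference, the 6 genes most like EGR1 were LINC03040 (0.995), ROBO2 (0.993), MXI1 (0.989), GPR155 (0.984), BHLHE41 (0.978) and LINC01561 (0.977). On no array did LINC03040, ROBO2 or LINC01561 reach the highest background probe set. MXI1, which encodes an antagonist of MYC, read 9.53, 8.90 and 9.42 after BATF3 siRNA, against 9.42, 8.75 and 9.19 after control siRNA. GPR155 read 7.70, 6.94 and 7.70 after BATF3 siRNA, against 7.50, 6.97 and 7.37 after control siRNA. In both genes replicate 2 was the lowest array of each group, and the groups overlapped. BHLHE41, a transcriptional repressor gene of the circadian clock, had a difference of −0.49 (SE 0.20), with r over levels at −0.28, and LINC03040 had one of 0.41 (SE 0.15). None of these 6 genes passed in limma (adjusted p = 0.612 to 0.927). The array background was 6.49, 5.92 and 5.98 in BATF3 siRNA replicates 1 to 3, and 6.49, 6.48 and 6.46 in the control siRNA arrays. Its part in these values was not tested.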
